A study of Mus musculus with 36 samples.

Results

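The mutant cerebella of this study fall on both sides of a divide in animal numbering. All 6 controls and 5 of the 12 mutants carry numbers from Sample_1120 to Sample_1219, while 7 mutants carry numbers outside that range. The mutants within the range were Sample_1120, Sample_1176 and Sample_1189 (cKO+/-) and Sample_1160 and Sample_1219 (cKO-/-). Those outside were Sample_933, Sample_938 and Sample_1433 (cKO+/-) and Sample_936, Sample_1371, Sample_1379 and Sample_1385 (cKO-/-), of which Sample_933, Sample_936 and Sample_938 lie below the range and Sample_1371, Sample_1379, Sample_1385 and Sample_1433 lie above it. Members were taken by number alone, 12 cerebellar libraries of the 36 in the series. The labels give no litter, birth date, dissection day or sequencing run, so whatever the number stands for cannot be told apart from the number itself.

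All animals were adult mice labelled as C57Bl/6, and bulk poly(A) RNA was sequenced from the cerebellum and the hippocampus of each. Mutants carried the Nestin-Cre transgene (NesCre/+) with 1 floxed *Pogz* allele (Pogz fl/+, cKO+/-) or with both alleles floxed (Pogz fl/fl, cKO-/-). Controls were Pogz fl/fl without Cre, so that Cre itself differs between controls and mutants but is shared by all 12 mutants compared here. Nestin-Cre acts in the neural lineage, and microglia and meningeal fibroblasts arise from other lineages. Each set held 3 cKO+/- animals, with 4 cKO-/- outside and 2 within. The outside set had 3 females and 4 males, the within set 3 females and 2 males. Above the range 3 of 4 animals were cKO-/-, and below it 2 of 3 were cKO+/-. Total counts per cerebellar library were 21421850 to 31247346 outside and 22978232 to 32544929 within, and *Xist* and Y-linked counts matched the labelled sex in 12 of 12 mutant libraries. *Pogz*, the targeted gene, was lower in each of the 12 mutant cerebella than in any control. Its level was 56.1, 66.3 and 80.4 CPM, the count scaled to library size with TMM factors, at the lowest, median and highest outside library, 73.8 to 82.1 CPM within and 90.1 to 129 CPM in controls. The difference in *Pogz* between the numbering sets did not pass the test (log2 difference -0.20 ± 0.07 SE, adjusted p = 0.0882).

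The cerebellum is small and lies against several other tissues. The leptomeninges cover its surface and follow its folds with fibroblasts that make collagens, small proteoglycans and *Igf2*. The choroid plexus of the fourth ventricle, an epithelium that secretes cerebrospinal fluid and makes transthyretin (*Ttr*), hangs beneath it, and the brainstem, whose neurons express Hox genes, is joined to it by the peduncles. Inside the cerebellum granule cells are by far the most abundant neurons, Purkinje cells send the output of the cortex, and microglia and border macrophages are the resident immune cells. Macrophages and dendritic cells can present antigen on MHC class II, whose alpha and beta chains (*H2-Aa*, *H2-Ab1*, *H2-Eb1*) are loaded with the help of the invariant chain *Cd74*. In bulk RNA, fewer cells of a type and less RNA per cell cannot be told apart.

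3 of the outside libraries stood apart from all others. *Ttr* reached 2175 CPM in Sample_933, 2792 CPM in Sample_936 and 2893 CPM in Sample_1433. In the other 4 outside libraries it was 1.63, 22.2, 44.3 and 8.49 CPM (Sample_938, Sample_1371, Sample_1379 and Sample_1385), within the range it was 2.68, 1.21, 0, 0.0316 and 0.0334 CPM (Sample_1120, Sample_1160, Sample_1176, Sample_1189 and Sample_1219), and no control exceeded 1.14 CPM. *Kl*, which encodes Klotho, was 71.9, 88.4 and 95.2 CPM in the same 3 animals, at most 5.63 CPM in the other outside animals and 1.41 to 2.71 CPM within. The 20 choroid plexus genes summed to 3732, 4730 and 4976 CPM in Sample_933, Sample_936 and Sample_1433, against 229 to 299 CPM in the other outside libraries, 173 to 239 CPM within and 174 to 208 CPM in controls; outside those 3 libraries most of the sum came from *Enpp2*, which oligodendrocytes also express. The 23 listed brainstem genes summed to 31.6 CPM in Sample_936, 19.9 CPM in Sample_1433 and 7.37 CPM in Sample_933, and to at most 3.48 CPM in every other mutant or control. *Hoxb5* was 4.05 CPM in Sample_936, 1.66 CPM in Sample_1433 and 0.108 CPM in Sample_933, and no read of it was counted in any within library. These 3 libraries come from animals below (Sample_933, Sample_936) and above (Sample_1433) the range and from both genotypes, but all 3 animals are male. The counts of calls that rest on these libraries are given with and without them.

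**Figure D1:**
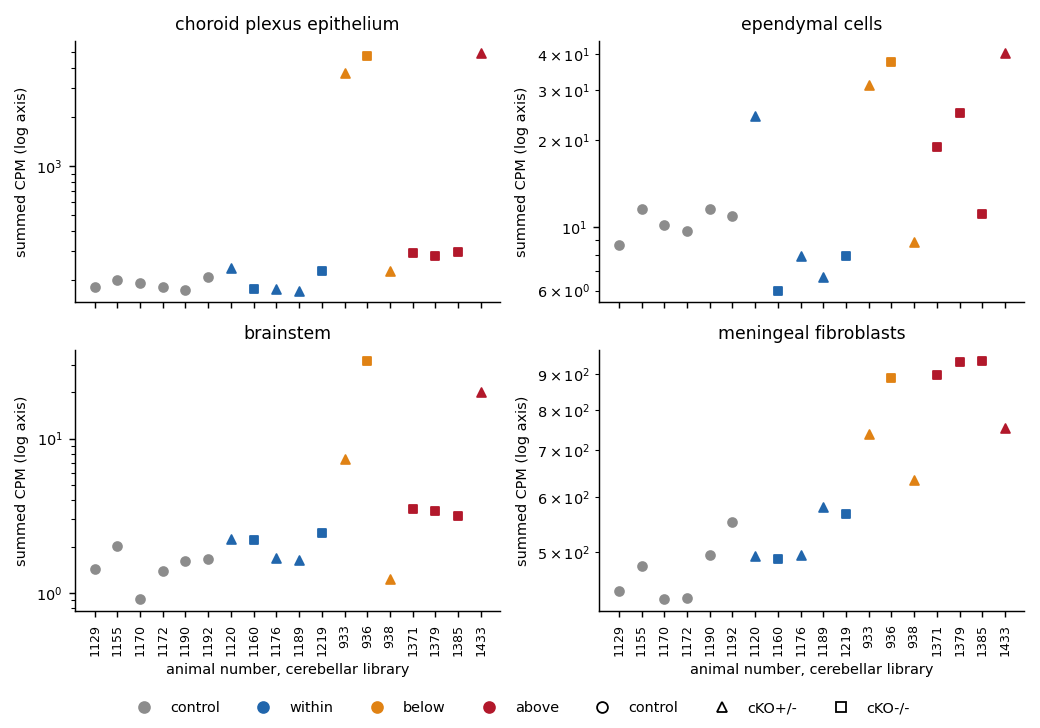
Summed CPM of 4 gene lists in each of the 18 cerebellar libraries (log axis, animal number on the horizontal axis, colour for numbering, marker shape for genotype). Choroid plexus genes rise to 3732, 4730 and 4976 CPM in Sample_933, Sample_936 and Sample_1433, ependymal genes also in Sample_1120, Sample_1371 and Sample_1379, and meningeal genes are above every within library in all 7 outside libraries.

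The comparison of outside with within mutants, with sex and genotype as covariates, asks which genes set these groups of mice apart. Of 14027 genes tested, 490 passed an adjusted p below 0.05 (3.49%), 340 higher outside (2.42%) and 150 lower (1.07%). Genes called higher included the MHC class II genes, meningeal fibroblast genes and microglial complement genes, with a median log2 difference of 0.65 over the 340. Genes called lower had a median of -0.41 and were led by *Car15*, *Stap2*, *Bcl2l15* and *Prrt2*. All 68 called genes with a log2 difference beyond 1 in size were higher outside. The median over all genes tested was -0.01. The values of all 7 outside libraries lay beyond those of all 5 within libraries in 704 genes (5.02%), 323 of them above and 381 below, and 309 of the 490 called genes were among them.

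The count of calls depended on single animals. Among within animals it was 7 without Sample_1219, 15 without Sample_1160, 46 without Sample_1176 and 88 without Sample_1189. Among outside animals it was 53 without Sample_1385, 82 without Sample_1433, 142 without Sample_933 and 2483 without Sample_938. Without Sample_933, Sample_936 and Sample_1433, which leaves 4 outside libraries of which 3 are cKO-/-, no gene was called (0%, 2697 genes at an unadjusted p below 0.05, smallest adjusted p = 0.053), while DESeq2 called 586 on the same libraries. Of the 4 outside libraries left only Sample_1371 is male, so the balance of sexes changes as well. All 490 genes kept their direction without the 3 libraries. They were chosen from all 12 libraries and the smaller fit reuses the rest of these, so the kept direction is no separate support. Of the 12 genes called higher with the smallest p-values, the adjusted p without these libraries was 0.053 for *H2-Aa*, *Ildr2* and *Efemp1*.

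**Figure D2:**
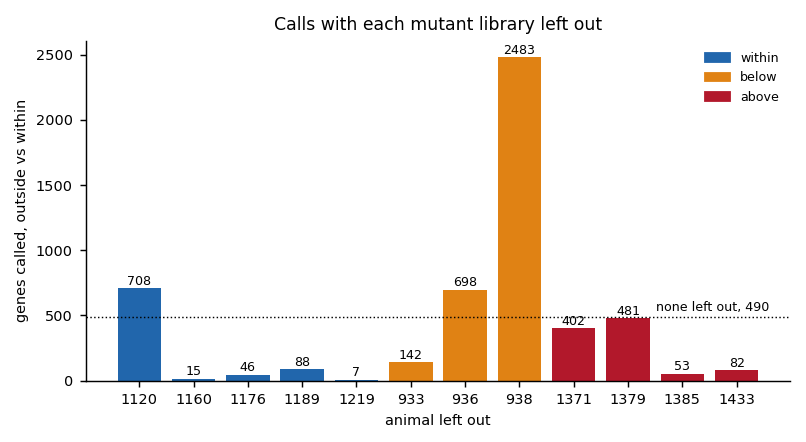
Number of genes called (adjusted p below 0.05, edgeR) between outside and within mutant cerebella when 1 library is left out, animal number on the horizontal axis and colour for numbering; the dotted line marks 490 with none left out. Counts run from 7 without Sample_1219 to 2483 without Sample_938.

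*H2-Aa* and *H2-Ab1* had the largest log2 differences of the 12 genes called higher with the smallest p-values. *H2-Aa*, the class II alpha chain (GRCm38 chromosome 17, 34282751 to 34287771, minus strand), was 3.81, 4.12 and 5.17 CPM at the lowest, median and highest outside library. Within the range it was 1.44, 1.25, 1.65, 1.89 and 1.67 CPM in Sample_1120, Sample_1160, Sample_1176, Sample_1189 and Sample_1219. Every outside library was above every within library and above every control, the controls ranging from 0.987 to 3.01 CPM. The difference was 2.72-fold (log2 1.45 ± 0.14 SE, adjusted p = 0.00211), on 87 to 154 counts per outside library and 28 to 60 within. It was called with each of the 12 libraries left out in turn (highest adjusted p = 0.0216), and without Sample_933, Sample_936 and Sample_1433 it was 1.52 ± 0.17 on the log2 scale (adjusted p = 0.053).

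*H2-Ab1*, the matching beta chain, was 2.80, 3.51 and 4.53 CPM outside and 1.36, 1.12, 1.55, 1.64 and 1.5 CPM within, again without overlap (log2 1.42 ± 0.17, adjusted p = 0.00555). *H2-Eb1*, another class II beta chain, was 2.38 to 5.38 CPM outside and 1.51 to 2.05 CPM within (log2 1.25 ± 0.20, adjusted p = 0.0172). *Cd74* was 5.96, 9.21 and 11 CPM outside and 3.36, 3.13, 4.82, 4.83 and 3.88 CPM within (log2 1.22 ± 0.17, adjusted p = 0.00767). All 4 class II pathway genes were thus higher in each of the 7 outside cerebella than in any of the 5 within, as were 323 of all 14027 genes tested. The 4 were named for their small p-values in this comparison or after their values were seen, so the lack of overlap is no separate result. The difference from the within set was 1.48 below the range and 1.41 above it for *H2-Aa*, and 1.54 and 1.31 for *H2-Ab1*, on the log2 scale.

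The promoters of the class II genes are shown because the class II genes were higher together and their proximal promoters share a known arrangement of boxes. The RefSeq promoter table (GRCm38.p6, from 250 bases before to 50 after each start) held *H2-Aa* (chr17:34287774-34288073, minus strand) and *H2-Eb1* (chr17:34305617-34305916, plus strand). Capitals mark the letters CTGATTGG, the core of the Y box, searched on both strands.
H2-Aa: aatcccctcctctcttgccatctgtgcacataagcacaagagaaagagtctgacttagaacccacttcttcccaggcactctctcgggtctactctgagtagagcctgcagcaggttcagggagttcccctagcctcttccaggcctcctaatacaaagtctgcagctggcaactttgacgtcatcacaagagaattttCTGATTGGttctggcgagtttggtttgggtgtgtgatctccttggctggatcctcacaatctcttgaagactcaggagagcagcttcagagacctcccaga
H2-Eb1: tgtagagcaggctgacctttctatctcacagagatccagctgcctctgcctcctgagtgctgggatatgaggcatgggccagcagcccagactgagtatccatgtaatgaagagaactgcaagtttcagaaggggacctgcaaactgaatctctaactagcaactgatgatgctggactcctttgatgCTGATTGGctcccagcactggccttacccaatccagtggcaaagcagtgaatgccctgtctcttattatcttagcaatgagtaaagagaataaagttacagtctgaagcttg
Each promoter held the letters once, at base 200 of 300 in *H2-Aa* and at base 189 of 300 in *H2-Eb1*. They occurred in 1346 of 32851 promoters of the table (4.1%). The match is a description of the sequence only.

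Class I antigen presentation and interferon-induced genes were measured beside class II. Of 17 genes listed for interferon response and antigen presentation, 8 were called higher outside and none lower, against 2.42% of all genes called higher. The 8 include the class II pathway genes *H2-Aa*, *H2-Ab1*, *H2-Eb1* and *Cd74* given above. The rest were *B2m*, *H2-K1*, *Bst2* and *Ifi27*. All 17 differences were positive, with a median log2 difference of 0.86. The summed list was 282.7 to 399.3 CPM outside, 235.1 to 260.2 CPM within and 248.2 to 324.5 CPM in controls, so that outside and controls overlapped. Against controls the median log2 difference of the list was -0.349 within and 0.395 outside. *B2m*, the light chain of class I, was 97.9, 118 and 137 CPM outside and 85.4, 77.5, 87.6, 83.8 and 78.3 CPM within (log2 0.53 ± 0.08, adjusted p = 0.0156). *H2-K1*, a class I heavy chain, was higher outside with overlap (log2 0.57 ± 0.12, adjusted p = 0.0322), while *H2-D1*, another heavy chain, was not called (log2 0.12, adjusted p = 0.384). Among interferon-induced genes *Bst2* (log2 1.05 ± 0.21, adjusted p = 0.0322) and *Ifi27* (log2 0.85 ± 0.17, adjusted p = 0.0315) were called. *Ifit1* (log2 0.96, adjusted p = 0.0802), *Ifit3* (log2 0.79, adjusted p = 0.0573) and *Isg15* (log2 0.98, adjusted p = 0.0737) were not. *Ifit3* was highest in Sample_1433, at 30.8 CPM, against 8.70 to 16.5 CPM in the other outside libraries. Without Sample_933, Sample_936 and Sample_1433 the list had a median of 0.47 with no call.

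**Figure D3:**
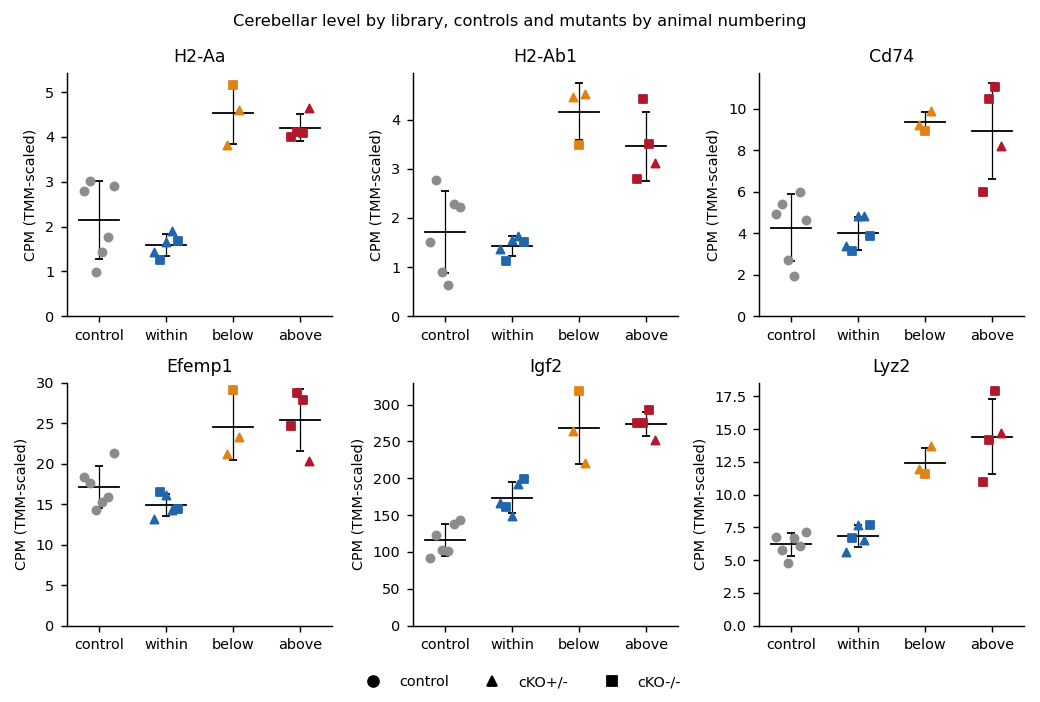
Level of 6 genes in each cerebellar library (vertical axis, TMM-scaled CPM from 0), grouped as controls, mutants within the range, below it and above it, with marker shape for genotype, the line for the mean and bars for the SD. For each of the 6 genes, chosen among those called, every outside library is above every within library, as in 323 of all 14027 genes tested.

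Microglial and macrophage genes were higher outside by a smaller amount. Of 16 genes, 5 were called higher and none lower (2.42% of all genes were called higher), all 16 differences were positive, and the median was 0.47 on the log2 scale. *Lyz2*, lysozyme of macrophages, was 11, 13.7 and 17.9 CPM outside and 5.63, 6.72, 7.65, 6.56 and 7.66 CPM within (log2 0.996 ± 0.131, adjusted p = 0.00754). *C1qa* and *C1qb*, chains of the complement protein C1q, were higher by 0.65 ± 0.12 (adjusted p = 0.0252) and 0.66 ± 0.12 (adjusted p = 0.0243). *Csf1r*, the receptor microglia need for survival, was also called (0.45 ± 0.11, adjusted p = 0.0486). The homeostatic microglial genes *Cx3cr1* (0.38, adjusted p = 0.0519), *P2ry12* (0.30, adjusted p = 0.0786) and *Tmem119* (0.36, adjusted p = 0.156) were not. The summed list was 240 to 325 CPM outside, 175 to 216 CPM within and 175 to 191 CPM in controls. Without Sample_933, Sample_936 and Sample_1433 the median was 0.41 with no call. *Ctss*, the protease cathepsin S that trims the invariant chain, was 28.3, 35.7 and 41.2 CPM outside and 22.2, 19.8, 24.5, 22.2 and 22.1 CPM within (log2 0.68 ± 0.09, adjusted p = 0.00754).

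Meningeal fibroblast genes made up 16 of the calls. Of 25 genes, all of which were tested, 16 were called higher outside and none lower, against 2.42% of all genes, and all 25 differences were positive with a median of 0.64 on the log2 scale. The summed list was 635 CPM in Sample_938 and 738 to 939 CPM in the other outside libraries, 488 to 581 CPM within and 427 to 552 CPM in controls. In 11 of the 25 genes every outside library was above every within library, as in 323 of all 14027 genes tested. Leaving out Sample_933, Sample_936 and Sample_1433 left a median of 0.72, with no call. The number called fell to 1 without Sample_1219, to 2 without Sample_1160 and to 3 without Sample_1176 or Sample_1385, to 5 without Sample_1433 and to 8 without Sample_933.

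*Efemp1*, the extracellular matrix protein fibulin-3, was 20.3, 24.7 and 29.1 CPM outside and 13.2, 16.5, 16.1, 14.3 and 14.4 CPM within (log2 0.72 ± 0.08, adjusted p = 0.00412). It was called with each of the 12 libraries left out in turn. *Igf2*, the growth factor that meninges and choroid plexus secrete, was 221, 275 and 318 CPM outside, 167, 161, 149, 193 and 199 CPM within and 91.5 to 143 CPM in controls (log2 0.58 ± 0.07, adjusted p = 0.0075). The 3 sets of *Igf2* levels did not overlap. *Mgp*, matrix Gla protein, was 25.4, 34.4 and 43.9 CPM outside and 22.8, 12.6, 18.2, 21.4 and 14.2 CPM within (log2 0.92 ± 0.18, adjusted p = 0.0299). *Islr* was 24.9 to 43.2 CPM outside and 14.2 to 23.0 CPM within (log2 0.83 ± 0.15, adjusted p = 0.0238), and *Pcolce*, an enhancer of procollagen processing, 10.8 to 22.2 CPM and 6.88 to 9.60 CPM (log2 0.79 ± 0.13, adjusted p = 0.0185). The proteoglycans *Dcn* (log2 0.63 ± 0.11, adjusted p = 0.0243) and *Ogn* (log2 0.82 ± 0.18, adjusted p = 0.0365) were called, whereas *Lum* missed the threshold (log2 0.65 ± 0.17, adjusted p = 0.0532). *Slc6a13*, the GABA transporter of leptomeningeal cells, was 15.1 to 33.5 CPM outside and 11.7 to 16.2 CPM within (log2 0.65 ± 0.13, adjusted p = 0.0315), overlapping at Sample_938. The transcription factors *Foxc1* (0.29, adjusted p = 0.0833), *Foxd1* (0.75, adjusted p = 0.0507) and *Tbx18* (0.44, adjusted p = 0.0505) were not called. Vessel genes gave other values. Of 12 endothelial genes none was called and 9 were negative (median -0.11). By side, their median against the within set was 0.12 below the range and -0.29 above it. Above against within, 3 were called lower and none higher, where 21.4% of all genes were called. Above against below, 3 were called lower and none higher, where 3.39% of all genes were called. Of 10 smooth muscle and pericyte genes only *Vtn*, vitronectin, was called (log2 0.33 ± 0.07, adjusted p = 0.0362), against 2.42% of all genes called higher. *Acta2* (-0.01) and *Myh11* (-0.29) were near or below 0.

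**Figure D4:**
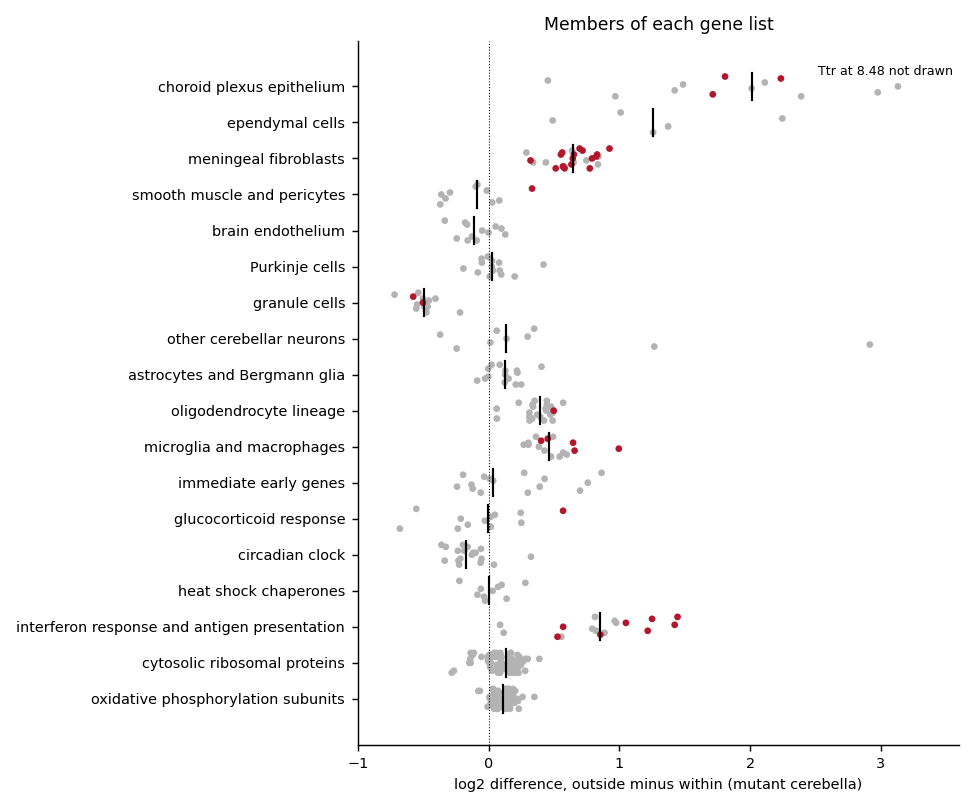
Log2 difference between outside and within mutant cerebella (horizontal axis) for each tested member of the lists with at least 5 tested genes; red points were called at an adjusted p below 0.05, grey points were not, and the black line is the list median. Meningeal, microglial and antigen presentation genes lie to the right of 0, granule cell genes to its left.

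Of the 12 genes called higher with the smallest p-values, 6 belong to no list. *Ildr2*, an immunoglobulin-like receptor, was 23.5, 31.6 and 35.4 CPM outside and 14, 13.6, 12.4, 17.4 and 13.3 CPM within (log2 1.05 ± 0.11, adjusted p = 0.00211), and it was called with each library left out in turn. *Ngfr*, the low-affinity neurotrophin receptor p75, was 6.05, 8.78 and 14.7 CPM outside and 3.69 to 6.75 CPM within, so that Sample_938 fell inside the range of the within set (log2 0.76 ± 0.10, adjusted p = 0.00754). *Slc12a7*, the potassium chloride cotransporter KCC4, was 8.34 to 11.3 CPM outside and 4.30 to 6.03 CPM within (log2 0.81 ± 0.11, adjusted p = 0.00754). *Myof*, the membrane repair protein myoferlin, was 6.24 to 10.2 CPM outside and 3.72 to 5.17 CPM within (log2 0.79 ± 0.11, adjusted p = 0.00754). *Ctss*, described above with the macrophage genes, is another.

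Choroid plexus genes were far higher in 3 of the 7 outside libraries than in the other 4. All 13 tested choroid plexus genes were positive with a median of 2.01 on the log2 scale, yet 3 were called, against 2.42% of all genes. *Kcnj13*, an inward rectifier channel of the choroid plexus, was 2.25, 5.09 and 23.8 CPM at the lowest, median and highest outside library and 1.10 to 2.33 CPM within (log2 2.24 ± 0.46, adjusted p = 0.0322). *Lbp* (log2 1.71 ± 0.34, adjusted p = 0.0313) and *Col8a1* (log2 1.81 ± 0.39, adjusted p = 0.0362) were the others. *Ttr* itself missed the threshold (log2 8.48 ± 2.37, adjusted p = 0.059), as did *Kl* (3.13 ± 0.88, adjusted p = 0.0593). Without Sample_933, Sample_936 and Sample_1433 the median of the list was 0.44. None of 5 tested ependymal genes was called (median 1.26, and 0.45 without those libraries). *Foxj1*, the master regulator of motile cilia, was 16.7 CPM at its highest outside and 4.68 CPM at its lowest, and within the range it was 9.07 CPM in Sample_1120 and 1.93 to 3.58 CPM in the other 4 (log2 1.37 ± 0.46, adjusted p = 0.0871). *Slc17a6*, the vesicular glutamate transporter of cerebellar nuclei and brainstem neurons, was 17.2, 59.0 and 119 CPM outside. Within the range it was 25.4 CPM in Sample_1120 and 12.7 CPM in Sample_1219 but 0.189 to 1.03 CPM in the other 3 (log2 2.92 ± 0.95, adjusted p = 0.0819). Of 13 midbrain genes only 2 were abundant enough to test. Of these *Th*, tyrosine hydroxylase, which some Purkinje cells also express, was called (log2 1.47 ± 0.30, adjusted p = 0.0322), where 2.42% of all genes were called higher. Its within levels of 1.39 to 3.70 CPM lay below the control range of 4.87 to 9.97 CPM, and its outside levels were 2.52 to 10.2 CPM. The 13 midbrain genes summed to 29.4 CPM in Sample_1385, 21.6 CPM in Sample_1433 and 15.5 CPM in Sample_1379, against 4.22 to 8.99 CPM in the other outside libraries, 2.91 to 5.86 CPM within and 6.48 to 11.8 CPM in controls. *Tal1*, a transcription factor of midbrain GABA neurons and of blood precursors, was 6.02 CPM in Sample_1385, 4.83 CPM in Sample_1433 and 2.12 CPM in Sample_1379, against 0.978 to 1.55 CPM within (log2 1.04 ± 0.47, adjusted p = 0.176). The dopaminergic markers *Slc6a3* and *Pitx3* were at or below 0.276 CPM in every mutant library. In Sample_1379 *Th* alone was 10.2 of the 15.5 CPM. These 3 animals are above the range, where granule cell genes were lowest. The other animal above, Sample_1371, had 4.22 CPM of midbrain genes and 6282 CPM of granule cell genes, against 7358 CPM of granule cell genes in Sample_1379. The part of midbrain transcripts in the granule cell levels was not tested.

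Granule cell genes had negative differences outside in all 14 cases, with a median of -0.50 on the log2 scale, and 2 passed the test, against 1.07% of all genes called lower. *Gabra6*, the GABA-A receptor subunit of mature granule cells, was 490, 702 and 896 CPM outside and 934, 1020, 1086, 1045 and 1016 CPM within (log2 -0.50 ± 0.12, adjusted p = 0.0427). *Neurod1*, a transcription factor of granule neurons, was 312, 451 and 530 CPM outside and 573, 683, 645, 641 and 634 CPM within (log2 -0.58 ± 0.14, adjusted p = 0.0448). Neither gene overlapped between the sets, but both lost the call without Sample_933, Sample_936 and Sample_1433 (log2 -0.52, adjusted p = 0.133, and -0.60, adjusted p = 0.117) and without several single animals.

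The granule cell genes also parted the outside animals by side of the range. Their sum was 6282, 7358, 5372 and 6100 CPM in the 4 animals above (Sample_1371, Sample_1379, Sample_1385 and Sample_1433), 9564, 8889 and 9247 CPM in the 3 below, 9816 to 11600 CPM within and 9400 to 10500 CPM in controls. Above against below, 7 of the 14 were called lower and none higher, where 3.39% of all genes were called. *Etv1*, a transcription factor of granule cells, was 138 to 167 CPM above and 234 to 274 CPM below (log2 -0.68 ± 0.08, adjusted p = 0.0074), and *Fat2*, a protocadherin of granule cells, 416 to 591 CPM and 978 to 1042 CPM (log2 -0.91 ± 0.11, adjusted p = 0.0074). Without Sample_933, Sample_936 and Sample_1433 this comparison leaves a single animal below and calls 16 genes in place of 476. Of the Purkinje cell genes none of 14 was called outside against within, with a median of 0.03, and *Calb1* (0.09, adjusted p = 0.781) and *Pcp2* (0.10, adjusted p = 0.721) were among those that missed the threshold.

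**Figure D5:**
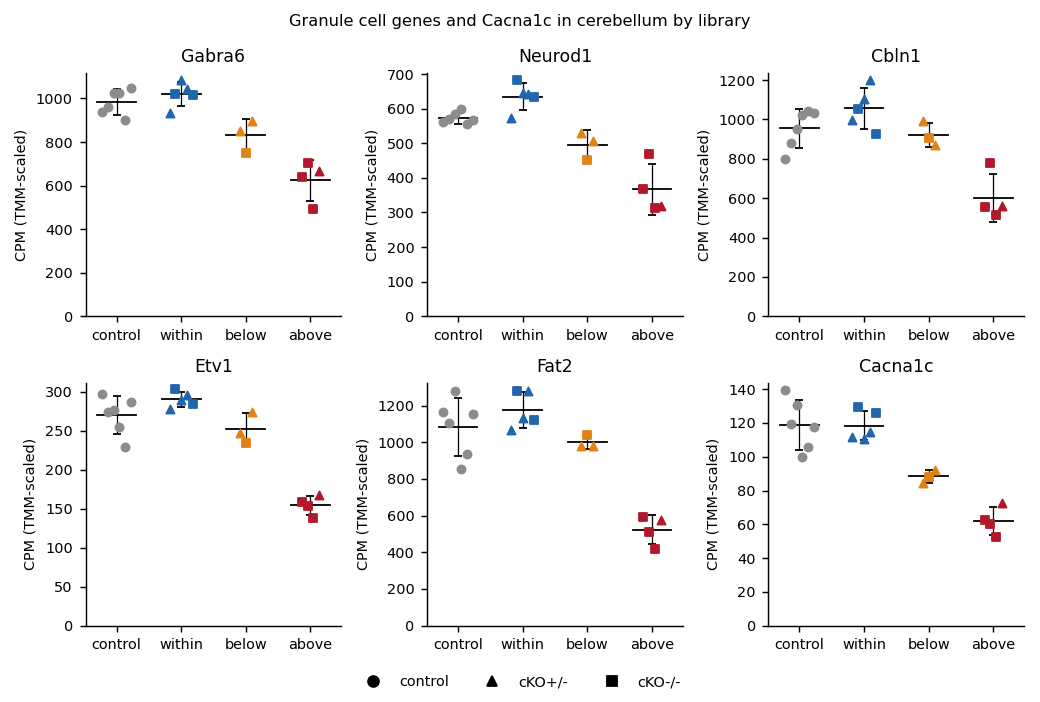
Level of 5 granule cell genes and *Cacna1c* in each cerebellar library (vertical axis, TMM-scaled CPM from 0), grouped as controls, mutants within, below and above the range, with marker shape for genotype, the line for the mean and bars for the SD. The 4 animals above the range are the lowest for *Etv1* and *Fat2*, and the 3 below lie between 234 and 274 CPM for *Etv1*.

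The 12 genes called lower with the smallest p-values belong to no list. *Car15*, a carbonic anhydrase, was 14.2, 19.3 and 22.5 CPM outside and 27.8, 28.5, 29.2, 30.3 and 27.2 CPM within (log2 -0.58 ± 0.09, adjusted p = 0.0132). *Prrt2*, a presynaptic protein that restrains vesicle release, was 277, 355 and 424 CPM outside and 490, 540, 520, 542 and 469 CPM within (log2 -0.51 ± 0.09, adjusted p = 0.0243). *Cacna1c*, the pore subunit of an L-type calcium channel, was 52.5, 72.9 and 92.3 CPM outside and 111, 129, 110, 115 and 126 CPM within (log2 -0.70 ± 0.13, adjusted p = 0.0243). It was -0.94 above the range and -0.44 below it, and the difference between the sides passed the test (adjusted p = 0.0279). *Sarm1*, an NAD hydrolase of axon degeneration, was 39.4 to 43.7 CPM outside and 46.4 to 53.4 CPM within (log2 -0.30 ± 0.06, adjusted p = 0.0277). *Itpr3*, an endoplasmic calcium release channel, was 12.9 to 33 CPM and 30.8 to 42.6 CPM, with overlap (log2 -0.65 ± 0.12, adjusted p = 0.0282). *Stap2* and *Bcl2l15* differed by genotype as well as by number, since in both sets the cKO-/- animals had the lower levels: *Stap2* was 17.0, 21.5 and 21.1 CPM in outside cKO+/- animals and 31.1, 27.6 and 31.5 CPM in those within. *Ccdc120* (-0.52), *Car10* (-0.52), *Tspan18* (-0.79), *Sema4f* (-0.42) and *Afap1l2* (-0.54) complete the 12, with adjusted p from 0.0243 to 0.0315.

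*Serpinb2*, a plasminogen activator inhibitor, was chosen after its values were seen because it moved with both genotype and number. In cKO+/- animals it was 2.23, 2.43 and 1.54 CPM outside and 3.74, 3.10 and 3.88 CPM within. In cKO-/- animals it was 11, 12.7, 15.8 and 9.67 CPM outside and 17.0 and 24.1 CPM within, while controls were at 0.152 to 0.784 CPM. With genotype in the model the difference by number was -0.77 ± 0.16 on the log2 scale (adjusted p = 0.0322).

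The remaining lists gave few calls, where 2.42% of all genes were called higher and 1.07% lower. Of 23 oligodendrocyte lineage genes all were positive (median 0.40), and 1 was called, the progenitor receptor *Pdgfra* (29.6 to 41.0 CPM outside and 22.1 to 29.6 CPM within, log2 0.50 ± 0.11, adjusted p = 0.0364). *Mbp*, a main protein of myelin, was not called (0.47, adjusted p = 0.14), and the summed list was highest in Sample_936, at 11530 CPM, and Sample_1433, at 10420 CPM. Of 12 glucocorticoid response genes *Pdk4* was called (log2 0.57 ± 0.12, adjusted p = 0.0322), while *Fkbp5* (0.25, adjusted p = 0.289) and *Sgk1* (0.02, adjusted p = 0.922) were not. No member was called among 15 astrocyte and Bergmann glia genes (median 0.13), 9 other cerebellar neuron genes (0.14), 15 immediate early genes (0.04), 18 clock genes (-0.17), 10 heat shock chaperones (0.00263), 77 cytosolic ribosomal protein genes (0.13), 78 oxidative phosphorylation genes (0.11) and 3 genes of known strain variation (0.14). Of the blood, brainstem, forebrain and skeletal muscle lists only 1, 1, 2 and 1 genes were abundant enough to test, none was called, and no pineal gene was tested. The 11 forebrain genes summed to 16.8 to 23.0 CPM in the animals above the range and 9.4 to 11.9 CPM in those below. Their sum was 8.8 to 13.1 CPM within and 7.5 to 10.9 CPM in controls, and this difference in sums was not tested. Called genes were spread over the genome, from 1.75% of the tested genes on chromosome 18 to 4.92% on chromosome 6.

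Each side of the range was also compared with the within set. Below against within, 17 genes were called, all higher (0.121%), and above against within 3007 were called, 1196 higher and 1811 lower (21.4%), or 2143 without Sample_1433. The genes called below included *H2-K1*, *H2-Aa*, *Ngfr*, *Efemp1*, *H2-Ab1*, *Ildr2*, *Myof*, *Tgfbr2*, *Igf2*, *Slc12a7*, *H2-Q4*, *Cd74*, *Ctss*, *Vcam1*, *Hhip* and *B2m*. Both comparisons use the same 5 within animals. *H2-K1* was 42.2, 34.7 and 42.0 CPM in the 3 animals below, 23.6 to 32.5 CPM in the 4 above and 21.9 to 25.1 CPM within. It was higher below than above (adjusted p = 0.0252). *Vcam1*, an adhesion molecule of activated vessels, was 25.5 to 29.5 CPM below and 16.0 to 19.9 CPM within (log2 0.59 ± 0.10, adjusted p = 0.0497). Without Sample_933 and Sample_936 a single animal remains below and no gene was called (474 at an unadjusted p below 0.05, 5 by DESeq2). Meningeal genes were called in 2 of 25 below and in 24 of 25 above, with medians of 0.49 and 0.75 on the log2 scale, and none of the 25 was called between above and below. Granule cell genes were called in none of 14 below (median -0.22) and lower in 13 of 14 above (median -0.77).

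The difference by number was also estimated within each genotype from a model with the interaction. No gene passed the test of the interaction (0%, 617 genes at an unadjusted p below 0.05, 0 called by DESeq2), which does not show that the genotypes respond alike. Without the 3 libraries rich in choroid plexus transcripts, where Sample_938 is the lone outside cKO+/- animal and is assumed to vary like the others, 16 genes passed. With all 12 libraries *H2-Aa* differed by 1.34 ± 0.20 on the log2 scale between 3 outside and 3 within cKO+/- animals (adjusted p = 0.144) and by 1.57 ± 0.22 between 4 outside and 2 within cKO-/- animals (adjusted p = 0.0294). *Igf2* differed by 0.47 and 0.70, *Ildr2* by 0.83 and 1.31, and *Gabra6* by -0.35 and -0.66. For the difference among cKO+/- animals this model called 0 genes (1099 at an unadjusted p below 0.05, 64 by DESeq2), and for that among cKO-/- animals it called 77.

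Each numbering set was then set beside the 6 controls, which carry numbers within the range and no Cre. Mutants within the range differed from controls in 33 genes (27 higher, 0.235%), and mutants outside in 3444 genes (1790 higher, 24.6%), or 3100 without Sample_933, Sample_936 and Sample_1433. The model held sex but not genotype. The sets also differ in size and genotype, with 2 cKO-/- among 5 animals within and 4 among 7 outside, so these counts are not an effect of number alone. The controls are shared, so the values are given side by side. *H2-Aa* differed from controls by -0.40 on the log2 scale within (adjusted p = 0.566) and by 1.02 outside (adjusted p = 0.00175). *Igf2* was higher in both, by 0.61 within (adjusted p = 0.00327) and 1.22 outside (adjusted p = 1.98e-07). Meningeal genes were called higher in 1 of 25 within and 22 of 25 outside, and granule cell genes lower in 0 of 14 within and 10 of 14 outside. *Gfap*, the astrocyte intermediate filament, was 216 to 259 CPM within, 236 to 368 CPM outside and 129 to 151 CPM in controls, so that both mutant sets were above every control (adjusted p = 0.000631 within and 1.19e-06 outside). The count for mutants within the range was 12 without Sample_1160 and 11 without Sample_1219.

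The hippocampi of the same 12 mutants gave no call for the same contrast. Of 14339 genes tested 0 passed (0%, 435 at an unadjusted p below 0.05, smallest adjusted p = 0.583), and DESeq2 called 1, *Iigp1*, an interferon-induced GTPase. *H2-Aa* in hippocampus was highest in Sample_1385, at 5.72 CPM, and 0.362 to 2.77 CPM in the other outside animals, against 0.348 to 1.42 CPM within (log2 1.196 ± 0.614, adjusted p = 0.583). The within hippocampus of Sample_1160 stood apart, with *C1qa* at 148 CPM against 39.1 to 44.3 CPM in the other 4, *Ptgds* at 1386 CPM against 285 to 441 CPM and *Zbtb16* at 4.92 CPM against 60.6 to 76.9 CPM. With it the medians of the meningeal, microglial, antigen presentation and granule cell lists were 0.09, -0.09, 0.29 and 0.10 on the log2 scale. Without it they were 0.20, 0.14, 0.70 and 0.08, and again 0 genes were called (352 at an unadjusted p below 0.05, 0 by DESeq2). Of the 17 interferon response and antigen presentation genes, 16 had positive differences with Sample_1160 and all 17 without it, none of them called. *Ttr* was highest there in other animals than in the cerebellum, at 4499 CPM in Sample_1385, 1023 CPM in Sample_1219, 594 CPM in Sample_1189 and up to 4506 CPM in a control. Of the animals high in the cerebellum, Sample_1433 had 119 CPM in hippocampus, Sample_933 2.28 CPM and Sample_936 0.167 CPM. *Ildr2* was 157 to 202 CPM outside and 141 to 180 CPM within (log2 0.15 ± 0.09, adjusted p = 0.583). In a model of both tissues, the difference by number was larger in cerebellum than in hippocampus for 2 of 13587 genes (0.0147%), *Ildr2* (difference of log2 differences -0.90, adjusted p = 0.0383) and *4930452B06Rik* (-1.10, adjusted p = 0.0383). For *H2-Aa* the tissues differed by -0.22 (adjusted p = 0.848) and for *Efemp1* by -0.57 (adjusted p = 0.31). With the animal as a block no gene passed (1503 at an unadjusted p below 0.05, 41 by DESeq2). None passed without Sample_1160 (1095 at an unadjusted p below 0.05, 19 by DESeq2) or without Sample_933, Sample_936 and Sample_1433 (2218, and 28 by DESeq2).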

How the data were processed

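Poly(A) libraries of cerebellum and hippocampus were sequenced by the authors as paired-end reads, aligned with STAR (version 250a in the submitters' processing notes, which name mm9) and counted per gene. The deposited tables hold whole-number counts for 24421 genes with no normalization. Their coordinates overlap those of RefSeq GRCm38.p6 for 99.9% of the 13421 tested genes whose symbols matched, so coordinates are given as GRCm38. The use of strand is not given in the sources used here, so overlapping or near-identical genes are uncertain. A spreadsheet had turned 27 symbols into dates.

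From these counts, genes above 1 CPM in at least 6 of the 18 libraries of a tissue were tested with edgeR 4.0.16 in R 4.3.3 (quasi-likelihood F test, TMM factors, sex and genotype beside number, the 12 mutants only except against controls, Benjamini-Hochberg adjustment, 0.05). Against controls sex was the only covariate. The fit was tested on simulated data. Printed CPM are scaled by TMM. SE are derived from the F statistic. DESeq2 1.42.0 was an alternative, with other scalings, filters, dispersions and covariates and single libraries left out. Alternatives chosen after seeing the data were the 3 libraries rich in choroid plexus transcripts left out, the choroid plexus sum as a covariate, the genotypes taken singly, within animals left out against controls, and the hippocampal lists without Sample_1160. Replicates are separate animals.

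Genes named are the 12 with the smallest p in each direction, up to 4 called and the first 3 members of each of 25 lists, and *Pogz*; all other genes, such as *H2-Eb1*, *Mgp*, *Bst2*, *Serpinb2* and *Vcam1*, were chosen after their values were seen. Some genes that this rule names are not reported here. The members and lists were chosen with earlier results of these data known. Promoter sequences are from RefSeq (GRCm38.p6). Same-numbered libraries of the 2 tissues come from the same animal, so the animal is a block; the residuals of an animal's libraries correlated by -0.468 to 0.323 (median 0.0166 over 12 animals).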

Additional observations from a re-analysis of the deposited data

Results flagged for a closer look

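Within the range, the summed ependymal genes of Sample_1120 were 24.3 CPM, far from the 6.00 to 7.92 CPM of the other 4 animals. The summed pineal genes of the same animal were 1.13 CPM, against 0.344 to 0.537 CPM in the other 4 and up to 1.28 CPM in controls, with *Tph1* at 0.491 CPM. These were 2 of 98 groups examined for a sample far from the rest, and chance alone flags about 1 in 20. The difference by number differed between cerebellum and hippocampus in 2 genes, *Ildr2* and *4930452B06Rik*, and in 0 with the animal as a block.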

How the results depend on the processing

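For outside against within cerebella, 490 genes were called, and the count was 1890 with DESeq2, 859 with no filter on low counts, 1032 with no sex term, 937 with no genotype term and 1262 with dispersions shared with the controls. It was 0 without the 3 libraries rich in choroid plexus transcripts, 10 with the choroid plexus sum as a covariate, 0 for cKO+/- animals and 77 for cKO-/- animals. Leaving out single libraries gave 7 (without Sample_1219) to 2483 (without Sample_938), and for the genes higher outside 7 to 1178 in place of 340. The 340 became 1133 with DESeq2, 574 with no filter, 635 with no sex term, 548 with no genotype term, 749 with shared dispersions, 0 without the 3 libraries, 10 with the covariate, 0 for cKO+/- and 65 for cKO-/- animals. DESeq2 also called 187 genes below against within, 1055 above against below, 118 in within mutants against controls and 68 for tissue by number. Without the 3 libraries, below against within gave 0 and above against below 16. Leaving out single animals gave 11 to 43 for within mutants against controls. In hippocampus each such count was 0 to 0, and DESeq2 called 1 with all animals. Tissue by number gave 0 with no filter, 0 without Sample_1160 and 0 without the 3 animals. Number by genotype gave 16 without the 3 libraries (499 by DESeq2) in place of 0. With the replicate block, which pairs the tissues of each animal, it gave 0 in place of 2. In the other comparisons each animal gives 1 library, so they hold no pair to block. The cause of these moves was not tested. Of 1638 values for 63 called genes named here over 26 alternatives, 1143 kept their direction and call, 495 kept their direction and lost the call, and 0 reversed. These genes were picked by their call and the alternatives refit mostly the same libraries, so few reversals were likely from the start. Of 1741 values for 67 named genes that were not called, 88 changed sign. Genes near 1 CPM rest on few counts, and 5 within animals limit every comparison.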
